A study of Mus musculus with 8 samples.

Results

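The plasma cell and antibody secretion program was examined in tumors of the mouse colon, with and without MDR1A, as a list of 33 named genes. The list held 15 plasma cell identity genes, 17 genes of folding and quality control in the endoplasmic reticulum (ER), and Pigr, the epithelial receptor that carries antibody across the mucosa. Each gene was read from the probe set that named it alone and had the highest mean over the 8 arrays, and 31 of the 33 had such a probe set, out of 22180 genes measured in this way. Cd38 had no probe set of its own in the annotation used, and Pdia4 was named only on a probe set shared with a microRNA gene, so neither was analysed here.

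The tumors came from male mice of the FVB/N strain, 4 of them WT and 4 MDR1A KO, and each mouse gave 1 tumor, hybridized to 1 array. All mice received azoxymethane (AOM), a colon carcinogen, once at 10 mg/kg at an age of 6 weeks. They then drank dextran sulfate sodium (DSS), which injures the colonic lining, at 2.5% in 3 cycles of 7 days that began on days 0, 21 and 42, and tissue was taken on day 84. MDR1A is the drug efflux pump P-glycoprotein encoded by Abcb1a. The knockout affects every cell of the mouse, so a difference in tumor tissue has no assigned cell type of origin. The tumors, which the labels record as adenomas, were compared with each other, and tissue without AOM and DSS was not analysed here. Different RNA kits were named in the methods, and the sources used here do not tie a kit to a tumor, so its part in the results was not tested.

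Values are log2 signals, and differences are MDR1A KO minus WT with the standard error (SE) of a limma fit over all 25341 named probe sets, so that a difference of 1 is a doubling. The disrupted gene Abcb1a stood at 9.04 ± 0.32 (SD, n = 4) in WT and 6.38 ± 0.35 (SD, n = 4) in MDR1A KO tumors, a difference of -2.67 with a limma adjusted p of 0.00599. Array medians lay between 5.62 and 5.67, and correlations between arrays between 0.969 and 0.987, with no identical pair among 28. In this fit 6.4% of all named probe sets had an unadjusted p under 0.05, 3.66% higher and 2.74% lower in MDR1A KO, and 0.0158% had an adjusted p under 0.05. The WT tumors differed widely among themselves in smooth muscle markers (Myh11, Acta2, Tagln, Des, Cnn1 and Actg2), whose mean level ran from 8.36 to 10.99 in WT and from 10.25 to 10.69 in MDR1A KO, with WT replicates 2 and 4 lowest and WT replicate 3 highest.

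Plasma cells are the end stage of the B cell lineage and live in large numbers in the lamina propria of the gut, where most of them make IgA. Prdm1 and Irf4 shut down the B cell program and install the secretory state, and Xbp1 expands the ER to handle the load of immunoglobulin. The ER chaperones that fold antibody are not particular to plasma cells: colonic epithelium, goblet cells above all, uses the same machinery. Antibody that leaves the plasma cell as J chain-linked polymer is taken up by PIGR at the base of epithelial cells and released into the lumen.

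The ER stress elements were found in promoters of both ER genes and identity genes of the list. Reference promoter windows, from 250 bases before to 50 bases after the annotated start, were taken from RefSeq on mouse build GRCm38.p6 for 28 of the 33 genes, all but Mzb1, Hyou1, Manf, Sec11c and Atf6. The ER stress response element was searched as CCAAT, 9 bases of any kind and CCACG, and this and all other motifs were searched on both strands. It is a site bound by ATF6 and the NF-Y complex. It occurred in the windows of Hspa5, Hsp90b1, Pdia6 and Creld2 among the ER genes and of Derl3 among the identity genes, that is in 5 of the 28 genes, against 0.137% of the 27025 genes with a window. The second form of the element, ATTGG and CCACG with 1 base between them, occurred in Herpud1 and in 0.0444% of all genes. The unfolded protein response element TGACGTGG, a site bound by XBP1, occurred in Pou2af1 and Txndc5 and in 0.714% of all genes, and its shorter core ACGTGG, which overlaps it, occurred in 7 members and 9.40% of all genes. The octamer ATGCAAAT of B cell promoters (1.97% of all genes), the composite Ets and IRF site, GGAA followed directly by GTGAAA (0.266%), and the PRDM1-type site, GAAA followed directly by GTGAAA (0.303%), occurred in none of the 28. The looser IRF-type site, GAAA and GAAA with 2 bases between them, includes the PRDM1-type site and occurred in Tnfrsf17 and Txndc5 and in 3.99% of all genes. A match describes the letters of a window and does not show that a factor binds there. The following windows are shown because they hold the ER elements in chaperone, degradation and identity genes (Hspa5, Hsp90b1, Creld2, Derl3, Herpud1 and Pou2af1), or because they belong to the identity genes with the lowest p (Tnfrsf17 and Jchain). They are written 5′ to 3′ on the gene's strand. Capitals mark the fixed letters of the element found, in either orientation, and for Tnfrsf17 those of the IRF-type site.
Hspa5, chr2:34771840-34772139, plus strand: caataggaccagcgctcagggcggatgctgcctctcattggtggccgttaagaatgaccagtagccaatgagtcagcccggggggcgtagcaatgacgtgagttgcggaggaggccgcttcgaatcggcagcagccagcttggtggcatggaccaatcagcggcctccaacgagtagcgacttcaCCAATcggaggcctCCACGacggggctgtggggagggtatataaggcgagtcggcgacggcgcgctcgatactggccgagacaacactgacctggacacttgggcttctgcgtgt
Hsp90b1, chr10:86705395-86705694, minus strand: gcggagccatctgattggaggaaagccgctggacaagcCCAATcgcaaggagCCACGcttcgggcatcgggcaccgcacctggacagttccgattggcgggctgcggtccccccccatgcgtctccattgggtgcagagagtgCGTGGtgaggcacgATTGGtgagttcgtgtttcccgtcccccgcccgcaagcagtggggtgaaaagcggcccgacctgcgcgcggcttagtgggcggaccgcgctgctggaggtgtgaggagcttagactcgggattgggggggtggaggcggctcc
Creld2, chr15:88819396-88819695, plus strand: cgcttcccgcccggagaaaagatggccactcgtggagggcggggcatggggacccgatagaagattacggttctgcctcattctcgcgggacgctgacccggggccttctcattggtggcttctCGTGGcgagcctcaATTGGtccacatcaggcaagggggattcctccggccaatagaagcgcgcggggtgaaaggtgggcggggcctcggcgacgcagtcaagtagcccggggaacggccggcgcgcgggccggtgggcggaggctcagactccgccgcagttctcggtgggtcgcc
Derl3, chr10:75893148-75893447, plus strand: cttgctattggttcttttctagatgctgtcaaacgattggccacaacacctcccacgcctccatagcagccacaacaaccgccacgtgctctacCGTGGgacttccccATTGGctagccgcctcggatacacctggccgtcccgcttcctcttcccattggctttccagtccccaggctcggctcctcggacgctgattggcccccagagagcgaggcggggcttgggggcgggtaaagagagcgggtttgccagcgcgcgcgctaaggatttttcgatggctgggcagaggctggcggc
Herpud1, chr8:94386179-94386478, plus strand: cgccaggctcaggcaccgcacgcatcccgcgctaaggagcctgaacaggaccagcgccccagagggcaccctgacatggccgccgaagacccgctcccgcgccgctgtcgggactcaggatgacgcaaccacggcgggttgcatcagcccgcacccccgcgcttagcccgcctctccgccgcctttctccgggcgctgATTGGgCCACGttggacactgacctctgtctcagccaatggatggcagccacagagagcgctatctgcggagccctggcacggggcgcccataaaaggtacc
Pou2af1, chr9:51213440-51213739, plus strand: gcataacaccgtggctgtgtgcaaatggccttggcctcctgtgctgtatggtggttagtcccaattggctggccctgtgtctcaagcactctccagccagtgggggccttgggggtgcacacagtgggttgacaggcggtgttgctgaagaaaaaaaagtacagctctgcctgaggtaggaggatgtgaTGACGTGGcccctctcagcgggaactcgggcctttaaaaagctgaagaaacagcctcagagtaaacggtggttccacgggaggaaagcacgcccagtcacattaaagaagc
Tnfrsf17, chr16:11313559-11313858, plus strand: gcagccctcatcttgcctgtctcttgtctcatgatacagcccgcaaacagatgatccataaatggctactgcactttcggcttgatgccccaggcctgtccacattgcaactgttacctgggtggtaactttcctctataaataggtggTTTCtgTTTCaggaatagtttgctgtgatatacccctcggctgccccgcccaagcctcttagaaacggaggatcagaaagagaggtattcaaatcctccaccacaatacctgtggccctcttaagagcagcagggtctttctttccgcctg
Jchain, chr5:88527848-88528147, minus strand: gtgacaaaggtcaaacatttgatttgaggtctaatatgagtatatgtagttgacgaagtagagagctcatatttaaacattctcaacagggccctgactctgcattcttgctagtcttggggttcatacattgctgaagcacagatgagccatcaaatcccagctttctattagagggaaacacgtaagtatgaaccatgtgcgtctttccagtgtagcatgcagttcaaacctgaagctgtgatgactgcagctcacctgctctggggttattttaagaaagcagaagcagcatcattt
In Hspa5 the element began 65 bases before the start, and in Creld2 and Derl3, where it lay in the reverse orientation, it began 126 and 156 bases before it. Hsp90b1 held it in both orientations, 212 and 107 bases before the start. The second form began 52 bases before the start of Herpud1, and the TGACGTGG site of Pou2af1 began 61 bases before its start. The window of Jchain held none of the motifs searched.

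Across the program, 27 of the 31 measured genes had a higher mean in MDR1A KO tumors, where 50.3% of all named probe sets did. Only Tnfrsf17, Jchain and Pigr were higher at an unadjusted p under 0.05 and none was lower. Of all named probe sets 3.66% were higher and 2.74% lower at this threshold. None of the 31 genes passed after adjustment over all probe sets by limma, where 0.0158% of all named probe sets did. None reached 2-fold at an unadjusted p under 0.05, a criterion met by 0.241% of all named probe sets. In none of the 31 did the values of the 4 MDR1A KO tumors lie entirely above or below those of the 4 WT tumors, which was so for 2.13% (above) and 1.59% (below) of all named probe sets. The methods' t-test placed 1 member under 0.05 before adjustment, and 6.12% of all named probe sets.  The 14 measured identity genes had a median difference of 0.39, from -0.19 to 0.95, with a median SE of 0.30, and the 16 measured ER genes had a median of 0.13, from -0.01 to 0.26, with a median SE of 0.11. Over all named probe sets the median was 0.00098 and the quartiles were -0.09 and 0.10. The genes of each group share tumors and cells and are not replicates, so no test of one group against the other was made. In bulk tissue, more plasma cells and more RNA per plasma cell cannot be told apart.

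**Figure D1:**
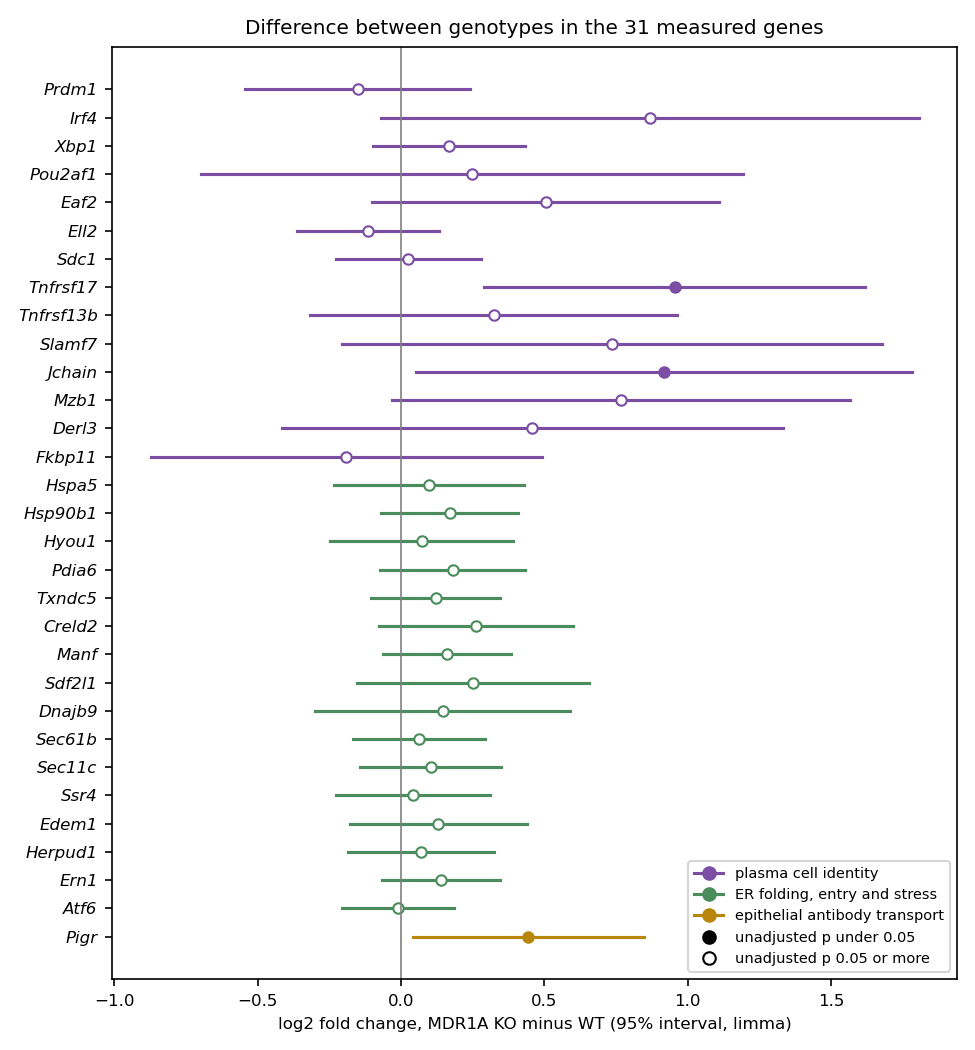
Difference in log2 signal (MDR1A KO minus WT, horizontal axis) of each measured member, with its 95% limma interval and the members arranged by role. Identity genes span -0.19 to 0.95 and ER genes -0.01 to 0.26, and the intervals of 28 of the 31 include 0.

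Among the regulators of the plasma cell state, 4 of 6 had a higher mean in MDR1A KO tumors and none had a p under 0.05. Prdm1, the repressor that ends the B cell program, stood at 8.05, 7.36, 7.28 and 7.45 in WT replicates 1 to 4 and at 7.27, 7.66, 7.23 and 7.37 in MDR1A KO. WT replicate 1 was the highest of the 8, and the other 7 tumors were intermixed. The difference was -0.15 (SE 0.17, limma adjusted p = 0.917). Xbp1, which drives expansion of the secretory apparatus and is also used by other secretory cells, stood at 10.51, 10.45, 10.94 and 10.73 in WT and at 10.69, 10.89, 10.88 and 10.83 in MDR1A KO tumors. The 2 lowest values were WT, but the highest was also WT, and the difference of 0.17 (SE 0.12, limma adjusted p = 0.858) was within the spread between tumors.

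Irf4, the factor needed together with Prdm1 for plasma cell fate, had the largest mean difference of the regulators, at 6.69, 5.52, 7.43 and 5.80 in WT and 7.04, 7.98, 6.71 and 7.19 in MDR1A KO tumors. The second highest value belonged to WT replicate 3, inside the MDR1A KO range, while the other 3 WT tumors lay below all MDR1A KO tumors. Its difference of 0.87 (SE 0.42, limma adjusted p = 0.79) did not pass, and the exact permutation p was 0.171. Eaf2, a transcription elongation factor found in germinal center and plasma cells, differed by 0.50, and Pou2af1, the coactivator of octamer factors in B cells and plasma cells alike, by 0.25. Ell2, the elongation factor that favors the secreted form of immunoglobulin heavy chain mRNA, differed by -0.11, and its second probe set by -0.05. Without WT replicate 1 the difference of Prdm1 was 0.02, so its lower mean in MDR1A KO rested on that tumor.

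Of the plasma cell surface proteins, Tnfrsf17 (BCMA, the receptor for the survival factors APRIL and BAFF) had the lowest p of the program. Its values were 4.45, 4.30, 5.63 and 4.53 in WT and 5.52, 5.72, 5.31 and 6.19 in MDR1A KO tumors. With a mean of 5.21 it was the dimmest of the 31 measured members. WT replicates 1, 2 and 4 and MDR1A KO replicates 1 and 3 lay below the array medians of 5.62 to 5.67. The part of this low signal in the difference was not tested. WT replicate 3 reached the MDR1A KO range and the other 3 WT tumors fell below it. The difference was 0.95 (SE 0.30), 1.94-fold, with a limma p of 0.00983 and an adjusted p of 0.686. The two-sided exact permutation test over the 70 arrangements of the tumors gave p = 0.0857, where 0.0286 is the smallest it can give. The difference stayed between 0.79 and 1.25 when each tumor was left out in turn, with an unadjusted p under 0.05 each time.

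Sdc1 (CD138), the usual surface marker of plasma cells, is also a proteoglycan of epithelial cells. It stood at 8.38, 8.30, 8.19 and 8.24 in WT and at 8.30, 8.16, 8.60 and 8.16 in MDR1A KO tumors. The genotypes overlapped almost fully, and the difference was 0.03 (SE 0.11, limma adjusted p = 0.984, 95% interval -0.23 to 0.28). The second probe set of Sdc1 differed by -0.12. Slamf7, a receptor of plasma cells and several other leukocytes, differed by 0.74 (SE 0.42, limma adjusted p = 0.821). Tnfrsf13b (TACI), the other receptor for APRIL and BAFF on B and plasma cells, differed by 0.32 (SE 0.28).

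Of the genes for antibody assembly, Jchain, the joining chain of polymeric IgA and IgM, stood at 11.65, 10.09, 12.00 and 10.68 in WT and at 11.90, 12.32, 11.60 and 12.28 in MDR1A KO tumors. WT replicates 2 and 4 were the lowest of the 8, and WT replicates 1 and 3 lay among the MDR1A KO values. The difference was 0.92 (SE 0.38), 1.89-fold, with a limma p of 0.0396, an adjusted p of 0.764 and a two-sided exact permutation p of 0.143. An unadjusted p under 0.05 was lost when WT replicate 2 (difference 0.58), WT replicate 4 (0.78) or MDR1A KO replicate 1 (0.96), 2 (0.82) or 4 (0.83) was left out. Mzb1, an ER cochaperone of B and plasma cells, was also lowest in WT replicates 2 and 4, at 6.43, 5.97, 7.49 and 6.23 in WT and 6.89, 8.01, 6.82 and 7.47 in MDR1A KO tumors. WT replicate 1 also lay below the MDR1A KO tumors, and WT replicate 3 lay among them. The difference of Mzb1 was 0.77 (SE 0.35, limma adjusted p = 0.786).

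Derl3, a component of ER-associated degradation, differed by 0.46, and Fkbp11, a peptidyl-prolyl isomerase of secretory cells, by -0.19. These genes did not share the order of tumors seen for Jchain: WT replicate 4 was the highest of the 8 for both, at 7.85 for Derl3 and 8.79 for Fkbp11. Without it the differences were 0.84, now at an unadjusted p under 0.05, and 0.15. Without WT replicate 2 the difference of Derl3 was 0.16. Both genes are used by other secretory cells as well. The immunoglobulin constant genes were outside the list, and 2 of 12 had a probe set of their own. The probe set used for Ighm, the constant region of IgM, differed by 0.99 (SE 0.35, limma adjusted p = 0.738). The 6 other probe sets annotated to Ighm alone differed by 0.41 to 1.20, none at an unadjusted p under 0.05. Further probe sets name Ighm or Ighg3 together with variable genes, and whether each set reads the constant region was not tested. Without WT replicate 4 the p of Ighm was no longer under 0.05 (difference 0.84). WT replicates 2 and 4 were the lowest of the 8 tumors for Ighm. With both left out, a choice made after seeing the data, Ighm differed by 0.36 and did not pass. Leaving out the lowest WT tumors makes the difference smaller in advance, so this is no test. Ighg3, of an IgG subclass, differed by 0.20 (SE 1.18) and by -0.22 on its other probe set. MDR1A KO replicate 4 stood at 10.16 for Ighg3 and the other MDR1A KO tumors at 5.28 to 5.96.

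**Figure D2:**
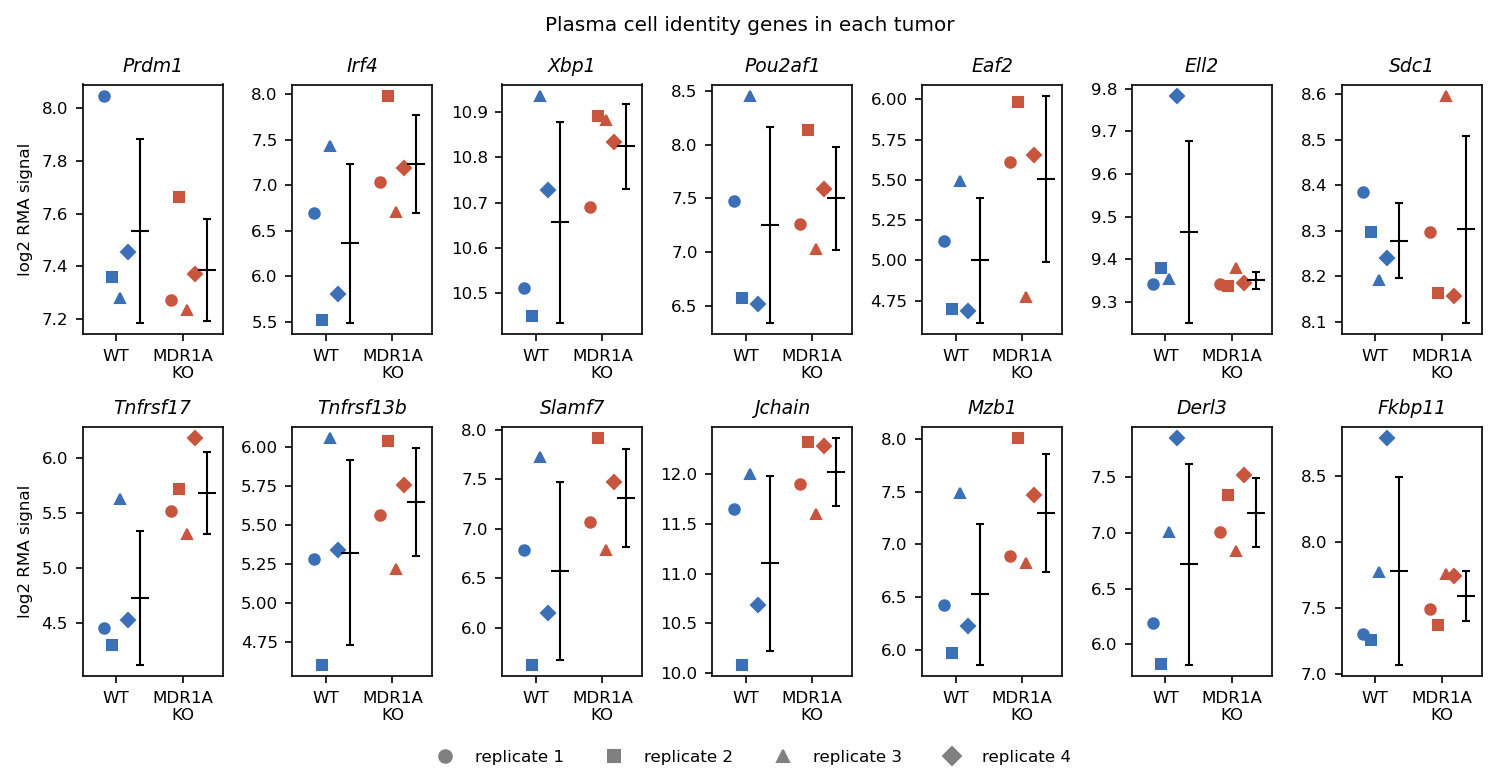
Log2 signal (vertical axis) of plasma cell identity genes in the 4 WT and 4 MDR1A KO tumors, with 1 point per tumor and a black mark for the group mean with its SD. In Irf4, Jchain, Mzb1 and Tnfrsf17, WT replicate 3 lies within the range of the MDR1A KO tumors, and WT replicates 2 and 4 lie below them. WT replicate 1 also lies below them in Irf4, Mzb1 and Tnfrsf17, and within their range in Jchain.

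The identity genes varied between tumors of the same genotype. Over the 8 tumors the median gene spanned 1.71, against 0.48 for the ER genes, and the SD was larger in WT than in MDR1A KO for 12 of 14 identity genes (median 0.64 in WT and 0.34 in MDR1A KO). WT replicate 2 had the lowest value in 9 of 14 identity genes, and WT replicates 2 and 4 made up the lowest pair in 6: Irf4, Pou2af1, Eaf2, Slamf7, Jchain and Mzb1. WT replicate 3 was among the 2 highest tumors in 7 identity genes and MDR1A KO replicate 2 in 10. Averaged over the 14 genes as deviations from each gene's mean, WT tumors 1 to 4 stood at -0.17, -0.72, 0.34 and -0.23, and MDR1A KO tumors at 0.06, 0.49, -0.08 and 0.32. The genotypes overlapped in this mean, with WT replicate 3 above 3 of the 4 MDR1A KO tumors.

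**Figure D3:**
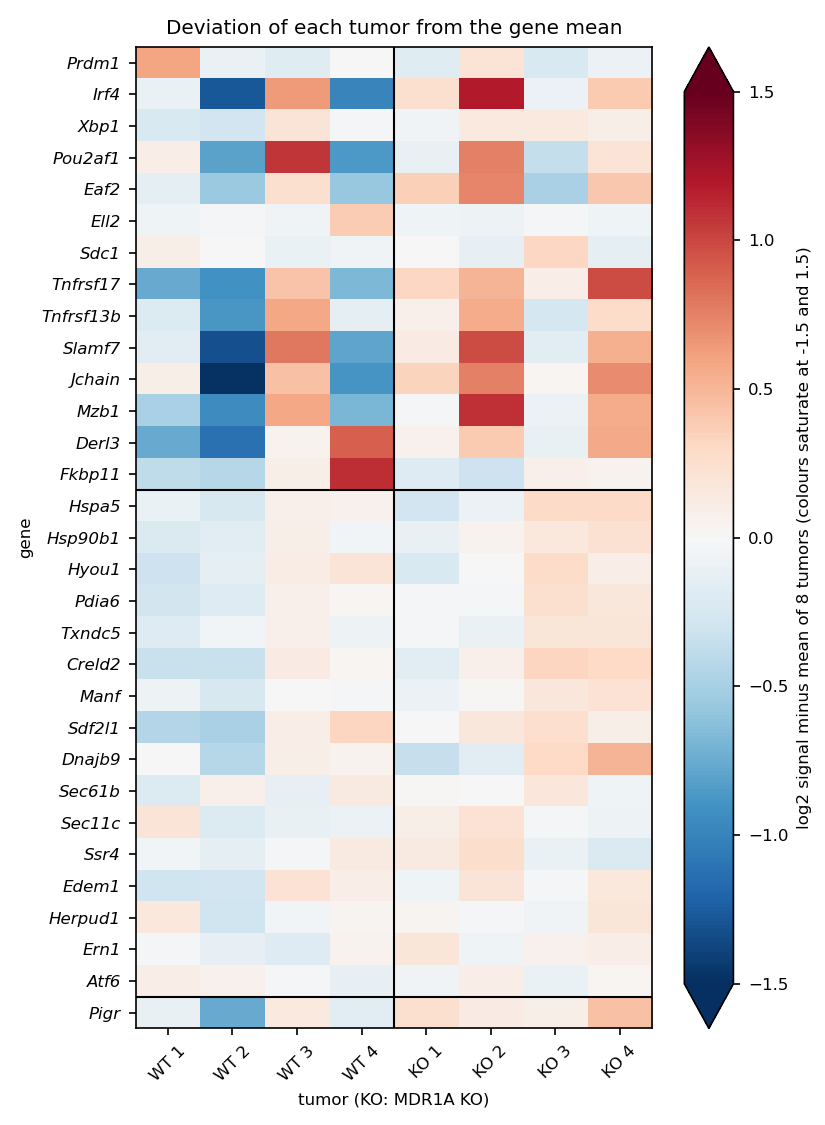
Deviation of each member's log2 signal from its mean over the 8 tumors (color), with members in rows by role and tumors in columns by genotype. WT replicate 2 is low in most identity genes, WT replicate 3 is high in many, and the ER genes vary less.

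Single tumors decided how many members passed. Without WT replicate 3, 10 of 31 members had an unadjusted p under 0.05, where 8.84% of all named probe sets did, 8 of them identity genes, among which Irf4 differed by 1.22, Slamf7 by 1.12 and Mzb1 by 1.09. The corresponding differences without WT replicate 2 were 0.59, 0.42 and 0.58. Without MDR1A KO replicate 3 the count was 6, with Irf4, Eaf2 and Mzb1 added, where 5.43% of all named probe sets passed. It was 1 without WT replicate 2 (6.95% of all named probe sets) and also 1 without MDR1A KO replicate 4 (5.75%). WT replicates 2 and 4 were also both left out, a choice made after seeing that they were low in many identity genes. Leaving them out raises the WT mean of such genes in advance, and only WT replicates 1 and 3 remain, so the smaller differences are no test. In this setting no member passed, where 7.47% of all named probe sets did, and the median of the identity genes was 0.08. In that setting limma gave 0.64 for Tnfrsf17 (adjusted p = 0.753), 0.20 for Jchain (adjusted p = 0.899) and -0.46 for Pou2af1 (adjusted p = 0.825), and Irf4, Slamf7 and Mzb1 differed by 0.17, 0.053 and 0.34. No member passed after adjustment in any of these settings.

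Of the ER chaperones and folding enzymes, all 9 measured had a slightly higher mean in MDR1A KO tumors and none had a p under 0.05. Hspa5 (BiP), the central chaperone of the ER lumen and a partner of unassembled heavy chains, stood at 9.45, 9.30, 9.62 and 9.61 in WT and at 9.26, 9.46, 9.84 and 9.83 in MDR1A KO tumors. The lowest and the 2 highest values were all MDR1A KO, and the difference was 0.10 (SE 0.15, limma adjusted p = 0.939). The largest differences in the group were 0.26 for Creld2 (SE 0.15, limma adjusted p = 0.825), a secreted ER stress protein, and 0.25 for Sdf2l1, a partner of BiP. Creld2 had an unadjusted p under 0.05 when WT replicate 3 (difference 0.35) or MDR1A KO replicate 1 (0.36) was left out, and Sdf2l1 when WT replicate 4 was (0.40). Hsp90b1 (GRP94) differed by 0.17, the disulfide isomerases Pdia6 and Txndc5 by 0.18 and 0.12, the ER stress protein Manf by 0.16, the BiP cochaperone Dnajb9 by 0.15 and the large chaperone Hyou1 by 0.07.

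In the group for ER entry and degradation the median difference was 0.07, against 0.16 for the chaperones and folding enzymes, and the genes of both groups overlapped. The difference was 0.06 for Sec61b, a subunit of the translocation channel, 0.10 for Sec11c, of the signal peptidase, and 0.04 for Ssr4, of the translocon-associated complex. Edem1 and Herpud1, which serve the disposal of misfolded glycoproteins and of other ER clients, differed by 0.13 and 0.07. A second probe set of Sec61b differed by -0.14 and that of Edem1 by 0.07. The signs of these small differences were not stable: leaving out 1 tumor turned those of Ssr4 and Herpud1, and the mean of both probe sets turned that of Sec61b.

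Both sensors on the list were measured. Ern1 (IRE1 alpha), the kinase and endonuclease that splices Xbp1 mRNA, stood at 8.68, 8.57, 8.50 and 8.75 in WT and 8.87, 8.62, 8.76 and 8.79 in MDR1A KO tumors. The highest 3 values were MDR1A KO and the lowest 2 WT, and the difference was 0.14 (SE 0.09, limma adjusted p = 0.843). Atf6, the sensor that is cleaved to a transcription factor, differed by -0.01 (SE 0.09, limma adjusted p = 0.995). RNA levels do not report splicing of Xbp1 or cleavage of ATF6. The 95% intervals of all 16 ER genes included 0 and lay within -0.30 and 0.66, so differences within that span were not resolved by 4 tumors a group.

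In the ER genes WT replicate 2 was again low, among the 2 lowest tumors in 12 of 16, and MDR1A KO replicates 3 and 4 were among the 2 highest in 10 and 9. WT replicates 1 and 2 each had the lowest value in 6 of 16 ER genes, MDR1A KO replicates 3 and 4 each had the highest in 5, and WT replicates 2 and 4 were the lowest pair in 0 of the 16. The mean deviation over the 16 genes was -0.13, -0.20, 0.03 and 0.05 in WT and -0.06, 0.04, 0.13 and 0.14 in MDR1A KO tumors. The 5 genes whose promoters held the CCAAT and CCACG element ranged from 0.10 (Hspa5) to 0.46 (Derl3).

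Wider lists of ER and plasma cell genes outside the program were read in the same way. Of 22 other folding and stress genes, 11 had a higher and 11 a lower mean in MDR1A KO tumors, with a median of -0.0007 and none at a p under 0.05. In 2 of them all 4 MDR1A KO values lay above the WT values, which was so for 2.13% of all named probe sets. These were Atf6b (0.22), a relative of Atf6, and Mbtps1 (0.17), the protease that cleaves ATF6. The lowest MDR1A KO and highest WT values were close, at 8.25 and 8.23 for Atf6b and 8.787 and 8.786 for Mbtps1. Of 26 other genes of ER entry and degradation, 18 had a higher mean, with a median of 0.05, and none had a p under 0.05. Of 8 other plasma cell genes, 6 had a higher mean, where 50.3% of all named probe sets did. At an unadjusted p under 0.05, 1 was higher, where 3.66% of all named probe sets were. Trp53inp1, a stress-induced gene also expressed outside plasma cells, was higher by 0.37 (SE 0.09, limma adjusted p = 0.523). All its MDR1A KO values lay above the WT values, as in 2.13% of all named probe sets.

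Pigr, the epithelial end of the antibody pathway, stood at 11.96, 11.33, 12.23 and 11.90 in WT and at 12.32, 12.20, 12.17 and 12.52 in MDR1A KO tumors. WT replicate 2 was lowest and WT replicate 4 next, while WT replicate 3 lay among the MDR1A KO tumors. The difference was 0.44 (SE 0.18), 1.36-fold, with a limma p of 0.0342, an adjusted p of 0.756 and a two-sided exact permutation p of 0.0857. An unadjusted p under 0.05 was lost without WT replicate 2 (difference 0.27), WT replicate 4 (0.46), MDR1A KO replicate 1 (0.44) or MDR1A KO replicate 4 (0.37). Epithelial markers did not share this direction, with 9 of 10 lower in MDR1A KO and a median of -0.14. The largest differences were those of Krt20 (-0.65, limma adjusted p = 0.635) and Cdx2 (-0.65, limma adjusted p = 0.756), of differentiated and intestinal epithelium. The unadjusted p of Cdx2 was not under 0.05 without WT replicate 4 or without MDR1A KO replicate 1, 2 or 3 (differences -0.52, -0.47, -0.62 and -0.60). The mean level of the 10 epithelial markers was 10.76 to 10.88 in WT and 10.51 to 10.68 in MDR1A KO tumors. Goblet cell markers were lower in 7 of 9, with a median of -0.30 and none at a p under 0.05.

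Markers of other cells in the tissue moved in part with the identity genes. Of 10 macrophage markers, 9 had a higher mean in MDR1A KO. Of these, 7 had an unadjusted p under 0.05, where 3.66% of all named probe sets were higher at that threshold. Among them were Adgre1 (0.67, limma adjusted p = 0.435), Aif1 (0.54, limma adjusted p = 0.61) and Cx3cr1 (0.87, limma adjusted p = 0.686). Csf1r and C1qa did not pass without WT replicate 2 (differences 0.29 and 0.39) or WT replicate 4 (0.33 and 0.35). Both tumors were the lowest of WT for Csf1r, Lyz2, C1qa and C1qb. With both left out, chosen after seeing the data, these genes differed by 0.08, 0.18, 0.20 and 0.18 and did not pass. Leaving out the lowest WT tumors makes a difference smaller in advance, so this is no test. The mean level of the 10 markers ran from 8.0 to 8.64 in WT and from 8.58 to 8.76 in MDR1A KO tumors. T cell markers were higher in 8 of 9, with 1 of them, Cd3g (0.99, limma adjusted p = 0.757) past an unadjusted p of 0.05 (without WT replicate 2 it differed by 0.64 and did not pass), and their mean level ran from 5.75 to 6.87 in WT and from 6.44 to 6.95 in MDR1A KO tumors. All 6 smooth muscle markers had a higher mean in MDR1A KO, with a median of 0.87 and none at a p under 0.05. Their mean deviation was -0.02, -1.36, 1.03 and -1.60 in WT replicates 1 to 4 and 0.73, 0.38, 0.29 and 0.55 in MDR1A KO. The WT tumors lowest in Jchain, Irf4 and Mzb1, replicates 2 and 4, were thus also low in these. They were the lowest WT tumors in T cell markers too (mean deviation -0.71 and -0.44) and in macrophage markers (-0.38 and -0.48). The part of macrophages, T cells and smooth muscle in the identity gene result was not tested.

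B cell markers had no common direction. Of 14 measured, 7 had a higher and 7 a lower mean in MDR1A KO tumors, with a median of -0.0009 and none at a p under 0.05. Their mean level ran from 5.38 to 7.65 in WT and from 5.65 to 6.88 in MDR1A KO tumors. WT replicate 3 was the highest of the 8 tumors in 11 of the 14. The mean deviation was -0.23, -0.90, 1.36 and -0.13 in WT replicates 1 to 4 and -0.16, 0.59, -0.63 and 0.10 in MDR1A KO. The part of WT replicate 3 in the even split was not tested. Pou2af1 and Tnfrsf13b, which B cells also express, were highest in the same WT replicate 3. Of 8 measured genes for signals that attract plasma cells or keep them alive, 4 had a higher and 4 a lower mean. Il6, a cytokine that supports plasma cells, differed by -1.39 (SE 0.55, limma adjusted p = 0.756). All 4 MDR1A KO values lay below the WT values, as in 1.59% of all named probe sets. WT replicate 1 stood at 6.89 and the other WT tumors at 3.80 to 4.51. Apart from WT replicate 1, all tumors lay below the array medians of 5.62 to 5.67 for Il6, so its signal was dim. Without WT replicate 1 the difference of Il6 was -0.74, and its unadjusted p was not under 0.05 without MDR1A KO replicate 2, 3 or 4. Tnfsf13b (BAFF) differed by 0.49 (limma adjusted p = 0.798).

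**Figure D4:**
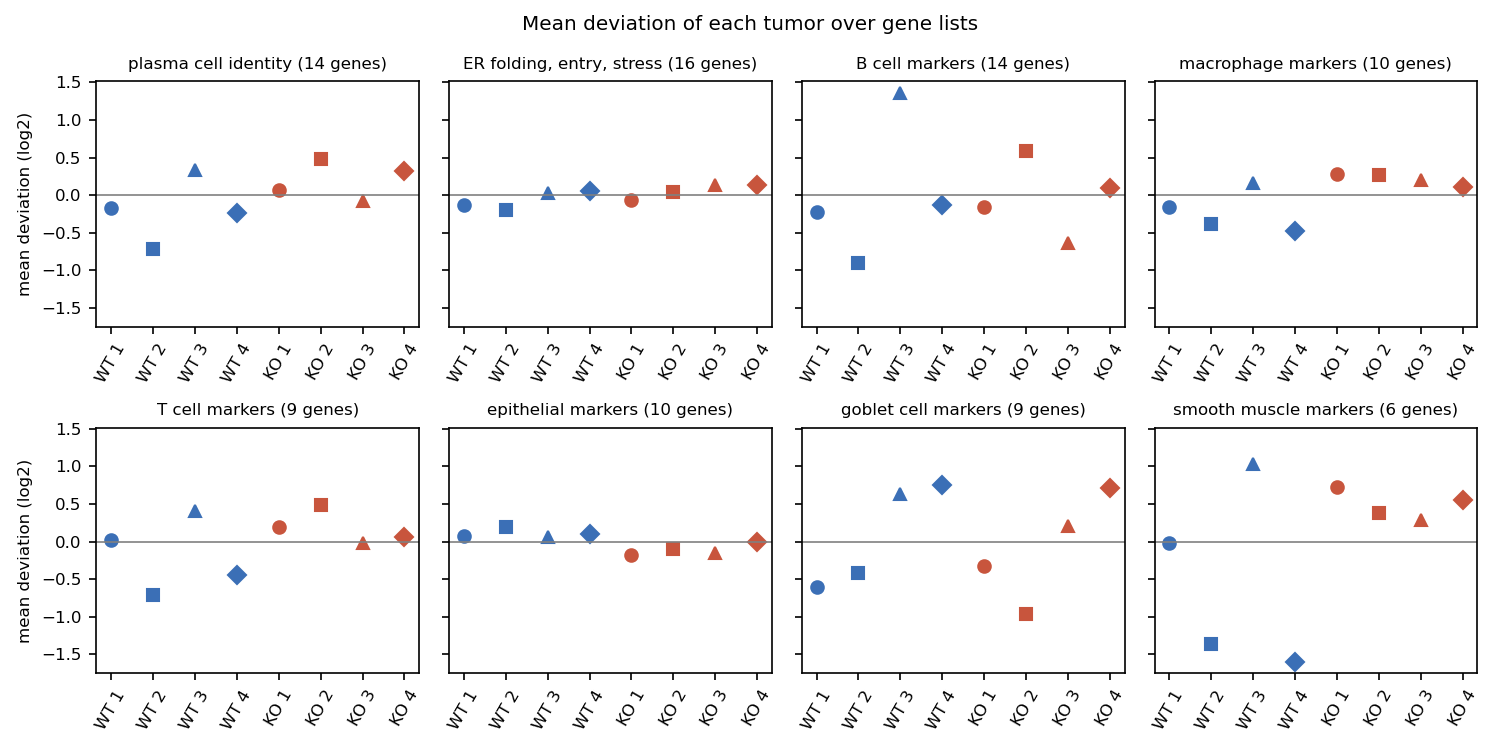
Mean deviation of log2 signal from each gene's mean (vertical axis) for gene groups and cell type marker lists, each point 1 tumor. WT replicate 2 is low for identity genes (-0.72) and smooth muscle markers (-1.36), and the ER genes stay between -0.20 and 0.14.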

How the data were processed

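The authors deposited log2 values that they had computed by RMA, which corrects background, quantile-normalizes the arrays and summarizes each probe set, in Affymetrix Expression Console 1.4 from GeneChip Mouse Gene 2.0 ST arrays. No source used here gives the genome build of the array annotation. Quantile normalization gives every array the same distribution, so a shift of all genes together cannot be seen, and array signals compress large differences. Of 41345 probe sets, 25341 had a symbol in the platform annotation (23521 with 1 symbol, 1820 with several) and 16004 had none.

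Samples were grouped by their labels. Differences were fitted with limma 3.58.1 (lmFit, eBayes) in R 4.3.3 over the 25341 named probe sets, two-sided, with Benjamini-Hochberg adjustment over all of them and a threshold of 0.05. Single values were compared by exact permutation over 70 arrangements with scipy 1.17.1 and pandas 2.3.3 in Python 3.11.15. The methods' t-test, which takes an unadjusted 0.05 and 2-fold, was an alternative. Other alternatives were a filter on the lowest 33.3% of probe sets, centred arrays, other probe set rules, variance settings, a replicate block and leaving out tumors.

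The members and lists were chosen with earlier results of these data known. All members were named, and values in every tumor were given for those with an unadjusted p under 0.05 and for Sdc1, Prdm1, Xbp1, Hspa5 and Ern1. Irf4 and Mzb1 were given in full after their values were seen. From other lists, members with the smallest unadjusted p under 0.05 were named. Atf6b, Mbtps1, Ighg3, Tnfsf13b, Csf1r, C1qa and C1qb were named after their values were seen. Scripts were tested on simulated data. Each array is 1 mouse's tumor, and the number of arrays limits the precision.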

Additional observations from a re-analysis of the deposited data

Results flagged for a closer look

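In 64 groups of 4 tumors (both genotypes of 31 members and of Abcb1a), 3 held a value far from the other 3 by Dixon's criterion, where chance gives about 1 in 20. Ell2 in WT replicate 4 was 9.78, with the nearest WT tumor at 9.38. Ell2 in MDR1A KO replicate 3 was 9.38, with the nearest MDR1A KO tumor at 9.34, in a group whose other values were nearly equal. Dnajb9 in WT replicate 2 was 8.71, with the nearest WT tumor at 9.14.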

How the results depend on the processing

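Of 31 members, 3 had an unadjusted p under 0.05. The count was 1 with the methods' t-test, 0 with WT replicates 2 and 4 both left out, and 1 to 10 when each tumor was left out. The pair was chosen after seeing that it was low in many identity genes, so its count of 0 is no test. The share of all named probe sets was 6.4%, then 6.12%, 7.47%, and 4.64% to 8.84%. The 2 identity genes became 1 with the methods' t-test and 1 with trended, robust variances. In these settings 6.12% and 6.26% of all named probe sets passed in either direction. The number of identity genes was 0 with both WT tumors left out, and 1 to 8 with each tumor left out. The ER count of 0 became 1 in some leave-one-out settings (0 to 1). The 2-fold count of 0 was 0 to 5 with each tumor left out, the 5 without WT replicate 3, where 0.485% of all named probe sets passed. At 1.5-fold it was 2, and the share of all named probe sets at 1.5-fold was not computed. No member passed after adjustment in any alternative, and the group medians kept their sign, at 0.13 to 0.61 for identity and 0.08 to 0.17 for ER genes with each tumor left out.

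Replicate numbers did not pair the tumors: same-number deviations correlated at 0.11, 0.02, -0.10 and 0.35, and not every tumor correlated best with its own number. With the replicate block, 1 identity and 1 ER gene (Creld2) had an unadjusted p under 0.05, where 6.56% of all named probe sets did.

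Small differences changed sign. With each tumor left out, Prdm1 ran from -0.24 to 0.021, Pou2af1 from -0.00058 to 0.65, Sdc1 from -0.073 to 0.074, Fkbp11 from -0.36 to 0.15, Hyou1 from -0.018 to 0.16, Ssr4 from -0.040 to 0.12, Herpud1 from -0.019 to 0.14 and Atf6 from -0.050 to 0.022. Centring the arrays gave -0.016 for Sdc1, and averaging probe sets gave -0.048 for Sdc1 and -0.039 for Sec61b. Without both WT tumors, Pou2af1 was -0.46, Ell2 0.0028, Tnfrsf13b -0.026, Fkbp11 0.053 and Herpud1 -0.027. The cause was not tested. With 4 tumors a group, differences within the intervals given could not be resolved.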
